A study of Homo sapiens with 64 samples.

Results

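Ribosome biogenesis factors are the proteins that process precursor ribosomal RNA (pre-rRNA) and assemble it with ribosomal proteins, and 39 of their mRNAs were followed here through every expression readout of a study of fibrillarin (FBL). The members were taken by name, as a list of pre-rRNA processing and ribosome assembly genes that all count tables hold: 39 of 26364 genes in the C4-2 RNA-seq and immunoprecipitation tables, of 25207 in the HEK293T tables and of 31796 gene names in the metabolic labelling tables. All 39 passed the filter on low counts in each of the RNA-seq and immunoprecipitation fits. The rule uses no measured value. Ribosomes are built in the nucleolus, where the small subunit processome folds and cleaves the pre-rRNA, separate particles mature toward the small and the large subunit, and RNA methyltransferases mark the rRNA on the way. FBL is the enzyme in box C/D small nucleolar ribonucleoproteins, particles that place 2′-O-methyl groups on pre-rRNA, and NOP56 is a core protein of the same particles. Genes of this pathway are a known group of MYC targets, and their mRNA levels usually go with growth and division of the cell. The members fall into 5 roles: 4 nucleolar chaperones and scaffolds (NCL, NPM1, NOLC1, DDX21), 16 factors of the small subunit processome (NOP14, UTP14A, UTP15, UTP18, UTP20, WDR43, WDR75, HEATR1, RRP9, DDX10, NOL6, NOL11, IMP3, IMP4, MPHOSPH10, EMG1), 12 of large subunit assembly (NOP16, BOP1, PES1, WDR12, RRS1, DDX18, PPAN, MRTO4, GNL3, EBNA1BP2, NIP7, FTSJ3), 5 of late small subunit assembly (RRP12, BYSL, NOB1, TSR1, LTV1) and 2 rRNA base methyltransferases (NOP2, NSUN5).

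The human lines used were C4-2, a prostate cancer line, and HEK293T, which derives from embryonic kidney and expresses SV40 large T antigen. C4-2 cells received siFBL or siCTRL and were sampled at 0, 3, 6 and 12 h, and HEK293T cells received siFBL, siNOP56 or siCTRL and were sampled at 0, 6, 12 and 24 h. Every siRNA and hour had 2 libraries, and all cells were transfected, the controls too. The series describes the hours as half-life experiments, and the sources used here do not say how transcription was stopped; its design text names shNOP56 where the sample labels name siNOP56. RNA immunoprecipitation (RIP) with an FBL antibody and its input came from C4-2 cells with siCTRL, with 2 libraries each and no control antibody. SLAM-seq followed C4-2 cells with siFBL or siCTRL that had been fed 100 µM 4-thiouridine for 24 h and then 10 mM uridine, so that older RNA carries T-to-C conversions in reads from the 3′ end. The labels do not say whether the 2 libraries of a group came from separate cultures, so p-values measure the spread between these libraries, which may be technical.

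The libraries held 79030570 to 106116071 counts in C4-2, 15957331 to 19881543 in HEK293T, 22909634 to 33270113 in RIP and input, and 14308365 to 60310841 reads in SLAM-seq. At 0 h FBL stood at 3.63 and 2.76 CPM (counts scaled by library size) in siFBL C4-2 libraries, against 305 and 265 CPM with siCTRL, and at 17.7 and 15.5 CPM in siFBL HEK293T libraries, against 322 and 313 CPM with siCTRL. NOP56 stood at 92.0 and 76.4 CPM with siNOP56 in HEK293T, against 206 and 204 CPM with siCTRL, a smaller reduction. Prostate luminal markers were at or above a mean of 1 CPM for 8 of 8 genes in C4-2 at 0 h, against 3 to 4 of 8 in HEK293T, where KLK3 and KLK2 were at 0; the 6 HEK293T markers were all above 1 CPM in HEK293T. The columns of the C4-2 tables give the siRNA, the hour and a replicate number but are written otherwise than the sample titles, so they were matched to groups only; libraries A and B are numbers 1 and 2 of the columns. Libraries with 1 number and 1 siRNA often deviated together at different hours (7 of 12 pairs of hours above 0.1 in C4-2 and 15 of 18 in HEK293T): the correlation of the differences between the 2 libraries, over genes, had a median of 0.47 in C4-2 (-0.144 to 0.819) and 0.777 in HEK293T (-0.0252 to 0.917), so the hours are not independent repeats of a comparison. Libraries of 1 group differed by more than counting noise in every group, but unevenly. The measure was the chi-square over genes per degree of freedom, which is 1 for counting noise alone. In HEK293T it was 1.48 to 8.3 for siCTRL, 37.1 to 75.4 for siFBL and 23.2 to 51.7 for siNOP56. In C4-2 it was 10.8 to 23.2 for siCTRL and 98.1 to 138 for siFBL. The fits share 1 estimate of the spread over all groups of a line.

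In C4-2 cells the factors stood lower after FBL knockdown from the start of the time course. At 0 h edgeR called 10 of the 39 lower and 0 higher with siFBL against siCTRL, while of the 23437 genes tested 6.87% were lower and 1.61% higher, and 38 of the 39 had a log2 fold change below 0. The median log2 fold change was -0.45 over the members and 0.04 over all genes. Across the 39 members the geometric mean was 58.5 and 63.0 CPM in the siFBL libraries, against 88.4 and 77.7 CPM in the siCTRL libraries. In bulk RNA, fewer cells of a kind and less RNA per cell cannot be told apart.

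All 4 nucleolar chaperones and scaffolds were among the 10. NCL (nucleolin, an abundant nucleolar RNA-binding protein) had 635 and 631 CPM with siFBL, against 1034 and 810 CPM with siCTRL, a log2 fold change of -0.54 (SE 0.152, edgeR adjusted p = 0.0367). NPM1 (nucleophosmin, a ribosome assembly chaperone whose reads may be shared with its processed pseudogenes) had 1030 and 986 CPM with siFBL, against 1518 and 1284 CPM with siCTRL. NOLC1 (Nopp140, which assists small nucleolar RNP assembly) had 296 and 275 CPM with siFBL, against 459 and 394 CPM with siCTRL, and the RNA helicase DDX21 had 274 and 343 CPM, against 480.5 and 404 CPM. In each of these 4 genes both siFBL libraries lay below both siCTRL libraries, with the A library of siCTRL the higher one. Members were picked for full description partly by groups that do not overlap, so this separation adds no support.

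Of the 16 factors of the small subunit processome, 3 were called. UTP20, a very long scaffold protein of the processome, had 21.3 and 17.8 CPM with siFBL, against 41.8 and 38.1 CPM with siCTRL. Its log2 fold change of -1.03 (SE 0.260, edgeR adjusted p = 0.0212) was the lowest among the members. NOP14 had 68.8 and 81.1 CPM, against 118.5 and 103 CPM, and NOL11 of the UTP-A subcomplex had 71.8 and 77.9 CPM, against 114.5 and 98.9 CPM. The groups did not overlap in these 3 genes either, which full description required. The sources used here do not say if counting used strand, and in GENCODE 29 exons of 21 of the 39 members overlap those of another gene, so reads of both may be mixed. The longest shared stretch is 1986 bases in HEATR1 (with LGALS8), 801 in IMP3 (SNX33), 706 in EMG1 (LPCAT3), 332 in FTSJ3 (PSMC5), 256 in RRP12 (an antisense gene), 246 in PES1 (TCN2), 210 in NOP14 (NOP14-AS1) and 174 in EBNA1BP2 (CFAP57), all on the opposite strand, and 757 in NOP2 and 194 in RRS1 with genes on the same strand. On the opposite strand TSR1 also shares 720 bases (SRR), NOB1 429 (an antisense gene), NIP7 238 (COG8) and NOP16 227 (HIGD2A). LTV1 shares 256 bases with a gene on the same strand. RNA-seq and RIP values of all 21 members carry that uncertainty.

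Among 12 large subunit factors only MRTO4, the placeholder for the ribosomal stalk, passed the test at 0 h: 24.1 and 24.0 CPM with siFBL, against 44.4 and 37.6 CPM with siCTRL (log2 fold change -0.77, SE 0.169, edgeR adjusted p = 0.00917). The PeBoW complex of PES1, BOP1 and WDR12 was not called. BOP1 had a mean of 16.6 CPM with siCTRL here but 142 CPM in the C4-2 input of the RIP, so its counts are uncertain. Of the 5 late small subunit factors RRP12, an export factor, was called (71.1 and 79.3 CPM with siFBL, against 109.5 and 104 CPM with siCTRL), and of the pair of rRNA base methyltransferases NSUN5 was (69.4 and 73.7 CPM, against 106 and 97.2 CPM; near-identical copies of NSUN5 exist, so its counts are uncertain). NOB1, the nuclease that makes the final cut of small subunit rRNA, was the one member with a log2 fold change above 0, with 67.8 and 112 CPM with siFBL around the 82.5 and 80.9 CPM of siCTRL.

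The count at 0 h depended on the libraries and on the scaling. It was 0 without siCTRL library A, 5 without siCTRL library B, 0 without siFBL library A and 3 without siFBL library B, with 633 to 1245 genes called in all, against 1988 with every library, while DESeq2 called 20 members lower, and scaling to ribosomal protein mRNAs called 2, with a member median of -0.23 and an all-gene median of 0.26. Markers of cycling cells moved the same way: 8 of 8 were called lower, with a sum of 300.3 to 410 CPM in the siFBL libraries, against 1582 to 1740 CPM in the siCTRL libraries and none of the 8 at 0, and their part in the result was not tested.

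**Figure D1:**
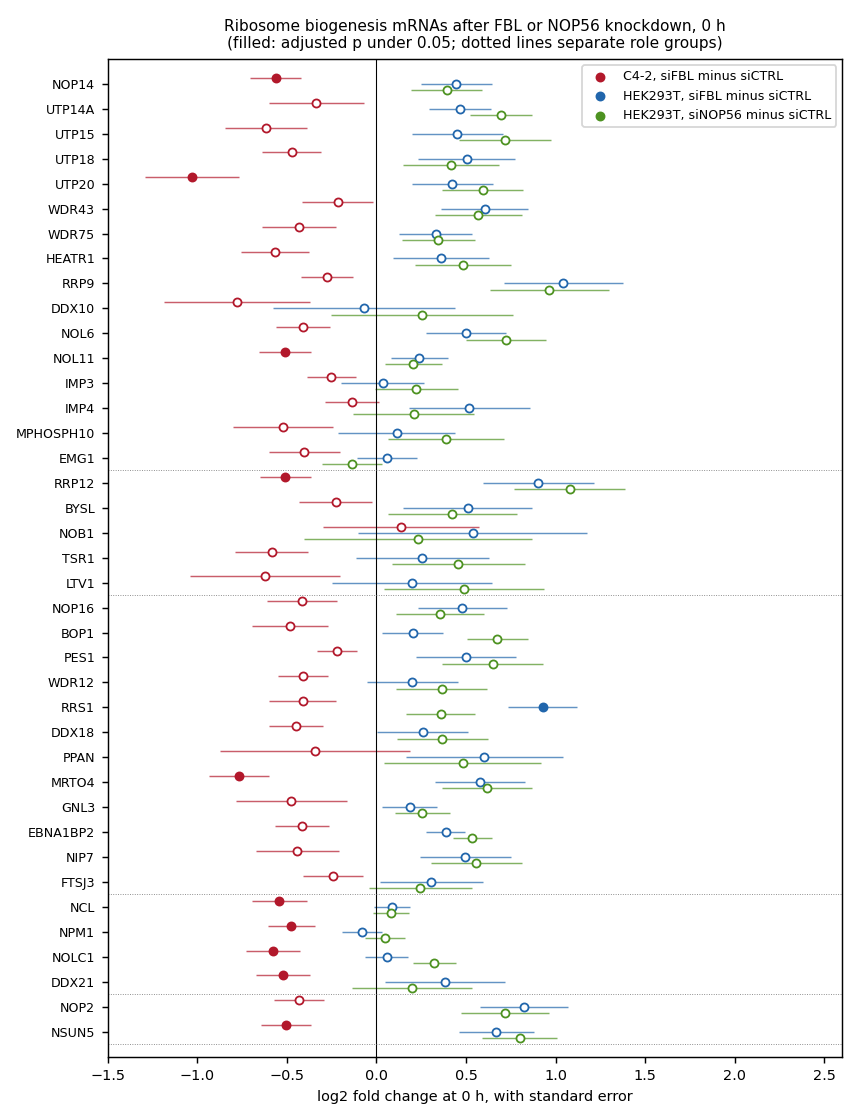
Log2 fold change at 0 h (x axis, bars are standard errors) of the 39 factors, ordered by role, for siFBL against siCTRL in C4-2 (red) and for siFBL (blue) and siNOP56 (green) against the shared siCTRL libraries in HEK293T; filled points passed the edgeR adjusted p of 0.05. The C4-2 points lie left of 0 for 38 of 39 genes, and the HEK293T siFBL points lie right of 0 for 37 of 39.

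The lower levels in C4-2 were present at each later hour. At 3 h edgeR called 19 of the 39 lower and 0 higher with siFBL (8.94% and 2.98% of all genes), at 6 h 13 and 0 (6.92% and 2.13%) and at 12 h 16 and 0 (10.7% and 2.73%). The member medians were -0.60, -0.45 and -0.51. UTP20 had 20.7 and 15.8 CPM with siFBL at 3 h, against 46.5 and 49.3 CPM with siCTRL (log2 fold change -1.39, edgeR adjusted p = 0.00263), and 23.7 and 11.8 CPM at 12 h, against 40.2 and 44.5 CPM. Both siFBL libraries were below both siCTRL libraries at every hour, which full description required. The cycling markers were called lower for 8 of 8 genes at 3, 6 and 12 h too, with median log2 fold changes of -2.17, -2.11 and -2.49. Their sums were 289 to 434, 287 to 386 and 177 to 291 CPM with siFBL, against 1626 to 1709, 1489 to 1507 and 1204 to 1244 CPM with siCTRL, and their part in the result was not tested.

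NCL, NPM1, NOLC1, NOP14, UTP20, NOL11, MRTO4 and NSUN5 were called at all 4 hours. Further members joined after 0 h. HEATR1, the UTP-A scaffold, was lower by log2 values of -0.79 at 3 h, -0.72 at 6 h and -0.74 at 12 h. UTP15, also of UTP-A, had 11.0 and 13.4 CPM with siFBL at 3 h, against 23.2 and 25.2 CPM with siCTRL (log2 fold change -0.99, edgeR adjusted p = 0.0112). RRS1, which helps to bring the 5S ribonucleoprotein into the large subunit, had 7.01 and 6.31 CPM with siFBL at 6 h, against 13.2 and 15.0 CPM with siCTRL (log2 fold change -1.08, edgeR adjusted p = 0.00192). IMP3, a protein of the MPP10 complex on U3 RNA, was called at 12 h, with 6.43 and 6.74 CPM with siFBL, against 10.9 and 12.0 CPM with siCTRL (log2 fold change -0.80, edgeR adjusted p = 0.00115). None of these pairs of groups overlapped, but this was a condition for describing a member in full and adds no support.

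At 12 h the 2 siFBL libraries differed: the geometric mean of the members was 33.8 CPM in A and 23.3 CPM in B, against 43.5 and 44.2 CPM with siCTRL. With every library edgeR called 16 members and 3144 genes in all at 12 h. Without siFBL library A it called 29 members and 4890 genes, without siFBL library B 6 and 1685, without siCTRL library A 9 and 1501 and without siCTRL library B 9 and 1505, so the count of members moved in the same direction as that of all genes. The counts at 3 h were 6 and 5 without siCTRL library A or B and 9 and 5 without siFBL library A or B; at 6 h they were 2 and 1 without siCTRL A or B and 7 (2 of them higher) and 6 without siFBL A or B. Over all genes these leave-outs gave 1004 to 2098 calls at 3 h, against 2794 with every library, and 858 to 2366 at 6 h, against 2122. WDR75, BYSL, DDX10, NOL6, GNL3, NOB1, IMP4, TSR1, LTV1, NIP7 and FTSJ3 were called in no RNA-seq comparison of a knockdown with siCTRL in either line.

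HEK293T cells gave the other direction. Across the members the geometric mean at 0 h was 97.8 and 110.9 CPM with siFBL and 93.9 and 122 CPM with siNOP56, against 79.8 and 79.7 CPM with siCTRL. At 0 h 37 of the 39 factors had a log2 fold change above 0 with siFBL, with a member median of 0.42 against 0.04 over all genes, but edgeR called only RRS1 higher and 0 lower (0.93% and 0.81% of the 14939 genes tested). RRS1 had 49.8 and 71.2 CPM with siFBL, against 33.1 and 30.5 CPM with siCTRL, a log2 fold change of 0.93 (SE 0.192, edgeR adjusted p = 0.0235). Both siFBL libraries were higher than both siCTRL libraries. The call was lost without siCTRL library 1 or 2 or siFBL library 2 and kept without siFBL library 1; DESeq2 called 3 members higher.

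The numbers called higher and lower were 7 and 0 at 6 h (3.33% and 3.29% of all genes), 8 and 0 at 12 h (6.34% and 4.57%) and 11 and 0 at 24 h (8.96% and 6.11%). The member medians were 0.49, 0.48 and 0.51. RRP9, the U3-specific protein of the processome, showed the highest of these changes among the members described in full. It had 53.8 and 115 CPM with siFBL at 24 h, against 24.7 and 26.6 CPM with siCTRL (log2 fold change 1.72, SE 0.343, edgeR adjusted p = 0.004). The siFBL libraries lay above the siCTRL libraries, a condition for describing a member in full, but were far apart from each other.

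RRP12 had 118 and 171 CPM with siFBL at 24 h, against 57.7 and 64.5 CPM with siCTRL (log2 fold change 1.24, edgeR adjusted p = 0.0146). NOP14 had 108 and 164 CPM, against 62.4 and 67.5 CPM (log2 fold change 1.07, edgeR adjusted p = 0.00286). NCL had 1130 and 1121 CPM with siFBL, against 647 and 677 CPM with siCTRL (log2 fold change 0.77, edgeR adjusted p = 0.000294). These groups did not overlap, which full description required, and in NCL the siFBL libraries were also close to each other. DDX21 and PES1 were called with log2 fold changes of 1.11 and 0.89, and EMG1, a processome methyltransferase, with 0.95. UTP18 of the UTP-B subcomplex, NOL11, EBNA1BP2 (a large subunit factor) and PPAN complete the 11; PPAN shares exons with the read-through gene PPAN-P2RY11 and its counts are uncertain. At 6 h NOP2 (a 28S rRNA methyltransferase), WDR43 (UTP-A) and NSUN5 were called, with 0.88, 1.05 and 0.94, and none of these 3 was called at 24 h.

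The HEK293T counts of members and of all genes both moved with single libraries. At 24 h the members called were 4 without siCTRL library 1, 4 without siCTRL library 2, 11 without siFBL library 1 and 2 without siFBL library 2, beside 679, 686, 2519 and 627 genes called in all. At 12 h they were 1, 2, 7 and 3 in the same order, beside 320, 309, 1559 and 269 genes, and at 6 h 0, 0, 7 and 0, beside 114, 98, 923 and 98 genes. With every library 990, 1630 and 2251 genes were called at 6, 12 and 24 h. With the 4 libraries of an hour fitted alone edgeR called 0 members at each hour. Of the cycling markers 0, 2, 3 and 1 of 8 were called higher with siFBL at 0, 6, 12 and 24 h and 0 lower, with median log2 fold changes of 0.03, 0.21, 0.30 and 0.28. DESeq2 gave the same counts, and at 0 h 1 was higher at an unadjusted p under 0.05 in edgeR. Their sums were 1226 to 1307, 943 to 994 and 772 to 792 CPM with siFBL at 6, 12 and 24 h, against 1086 to 1100, 828 to 889 and 702 to 725 CPM with siCTRL. Their part in the result was not tested.

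NOP56 knockdown was compared with the same siCTRL libraries, so the siFBL and siNOP56 results share their control values and are given side by side. At 0 h edgeR called 0 of the 39 in either direction with siNOP56 (0.12% of all genes called higher and 0.0669% lower), and DESeq2 called 3 higher. At an unadjusted edgeR p under 0.05, 15 were higher and 0 lower. The share of all genes at that unadjusted p is not given here, so the 15 have no background to be read against. The member median was 0.41, against 0.42 with siFBL. The closest to the threshold was EBNA1BP2, with 132 and 163 CPM with siNOP56, against 101 and 102.5 CPM with siCTRL (log2 fold change 0.53, edgeR adjusted p = 0.052). The numbers called higher and lower were 3 and 0 at 6 h (0.368% and 0.315% of all genes), 5 and 0 at 12 h (0.864% and 0.663%) and 10 and 0 at 24 h (3.58% and 1.73%).

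EBNA1BP2 had 328 and 335 CPM with siNOP56 at 24 h, against 185 and 185 CPM with siCTRL (log2 fold change 0.84, SE 0.108, edgeR adjusted p = 0.000832); its log2 fold change with siFBL was 0.51. BOP1, the PeBoW scaffold, had 483 and 649 CPM with siNOP56, against 290.1 and 298 CPM with siCTRL (log2 fold change 0.94, edgeR adjusted p = 0.00741). UTP14A, whose yeast counterpart activates an RNA helicase of the processome, had 28.1 and 32.9 CPM, against 16.2 and 16.1 CPM (log2 fold change 0.92, edgeR adjusted p = 0.00997). In these 3 genes both siNOP56 libraries were above both siCTRL libraries, which full description required. RRP12, RRP9, HEATR1, NOP14 and NCL were called with log2 fold changes of 1.40, 1.23, 0.98, 0.89 and 0.59, and NOLC1 and NPM1 with 0.52 and 0.47.

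Without siNOP56 library 1 the count at 24 h was 14, and it was 1 without siNOP56 library 2 or either siCTRL library; at 12 h these values were 7 and 0, and at 6 h 4 and 0. The genes called in all were 1087 without siNOP56 library 1 at 24 h and 31 to 62 without one of the others, against 794 with every library. Of the 8 cycling markers edgeR called 0 with siNOP56 at each hour and DESeq2 called 0, 0, 0 and 1 higher at 0, 6, 12 and 24 h; at an unadjusted edgeR p under 0.05 there were 0, 3, 4 and 3 higher and 0 lower. DESeq2 called 17 members higher at 24 h and scaling to ribosomal protein mRNAs left 4. Set directly against siNOP56 at 0 h, siFBL gave 0 called members (0.00669% of genes higher, 0.0134% lower; 1 and 2 members at an unadjusted p under 0.05, 0 in DESeq2). The largest difference was in RRS1, with 49.8 and 71.2 CPM with siFBL, against 42.1 and 39.4 CPM with siNOP56 (log2 fold change 0.57, edgeR adjusted p = 0.777).

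The difference between the lines was tested in 1 model over both. FBL itself had a mean of 3.19 CPM with siFBL in C4-2, against 285 CPM with siCTRL. In HEK293T it had 16.6 CPM, against 317.5 CPM. The log2 difference for FBL was -2 (edgeR adjusted p = 0.0548), and the part of knockdown depth in the values below was not tested. The siFBL effect at 0 h in C4-2 minus that in HEK293T was below 0 for all 39 factors, and edgeR called 8 of them lower and 0 higher (4.24% and 3.26% of the 17634 genes tested). The median difference was -0.59 over the members and 0.05 over all genes. The 8 were UTP20 (-1.23), RRP12 (-1.20), MRTO4 (-1.12), RRS1 (-1.12), NOP2 (-1.04), NSUN5 (-0.96), NOP14 (-0.79) and EBNA1BP2 (-0.59), with edgeR adjusted p-values of 0.00705 for RRS1 to 0.0396 for NOP14. UTP20 shows the pattern: 21.3 and 17.8 CPM with siFBL in C4-2, against 41.8 and 38.1 CPM with siCTRL, and 83.7 and 71.6 CPM with siFBL in HEK293T, against 57.8 and 58.1 CPM with siCTRL. NOP2 had 114 and 132 CPM with siFBL in C4-2, against 182 and 150.3 CPM with siCTRL, and 214 and 273 CPM with siFBL in HEK293T, against 136 and 139 CPM with siCTRL. NCL, NPM1, NOLC1 and DDX21, all lower in C4-2, were not among the 8.

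The count was 5 without C4-2 siCTRL library A, 12 without C4-2 siCTRL library B, 5 without C4-2 siFBL library A, 9 without C4-2 siFBL library B, 7 without either HEK293T siCTRL library, 8 without HEK293T siFBL library 1 and 5 without HEK293T siFBL library 2, with 806 to 1711 genes called in all, against 1321 with every library. The cycling markers also differed between the lines: 8 of 8 were called in the same direction, and in HEK293T at 0 h their sum was 1721 to 1853 CPM with siFBL, against 1676 to 1679 CPM with siCTRL. Their part in the difference was not tested.

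**Figure D2:**
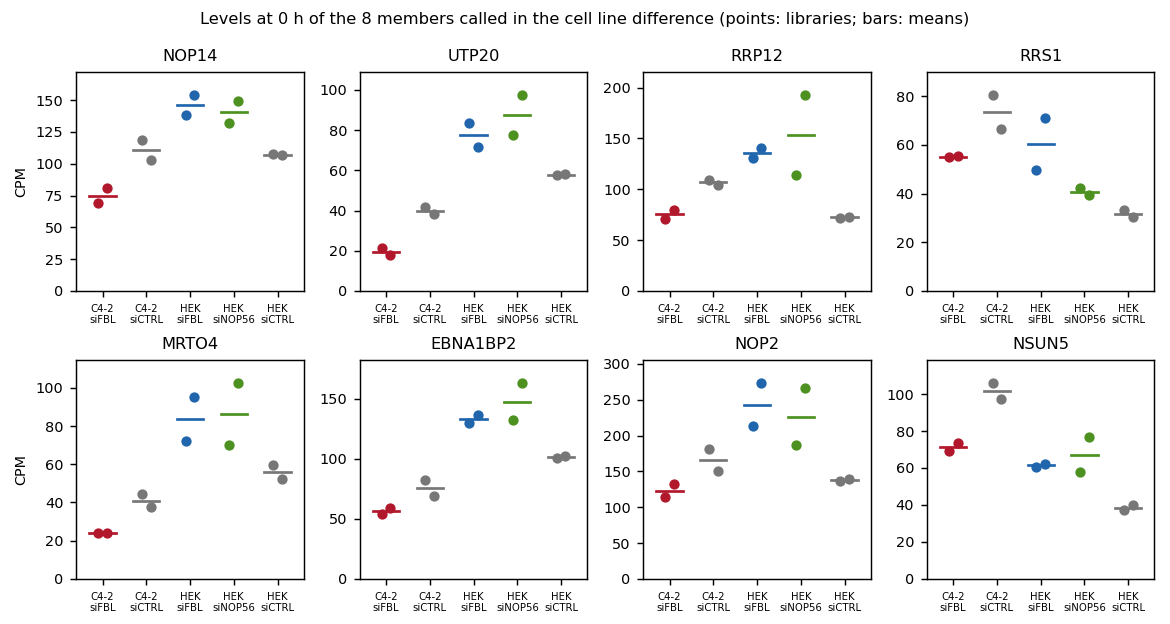
CPM at 0 h in each library (points; bars are means of 2 libraries) of the 8 factors called in the cell line difference, for C4-2 siFBL and siCTRL and for HEK293T siFBL, siNOP56 and siCTRL. In all 8 panels both C4-2 siFBL points lie below both C4-2 siCTRL points, and both HEK293T siFBL points lie above both HEK293T siCTRL points. The 8 were picked by a test on these same libraries, so this separation adds no support.

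A second list of 99 other biogenesis factors, none of them a member, gave counts in the same directions. In C4-2 with siFBL 15, 37, 19 and 36 of the 99 were called lower at 0, 3, 6 and 12 h and 0 higher. The exosome subunits EXOSC9 and EXOSC8 had the lowest values at 0 h, with log2 fold changes of -1.46 and -1.16. In HEK293T with siFBL 1, 13, 22 and 28 were higher and 0, 4, 3 and 3 lower at 0, 6, 12 and 24 h, with METTL5 (an 18S rRNA methyltransferase, 1.74) and the helicase DHX37 (1.56) highest and UTP3 (-0.75) and NOP53 (-0.65) lowest at 24 h. With siNOP56 the numbers higher were 0, 2, 4 and 19, with 1 lower at 24 h (DDX24, -0.50). In the cell line difference 8 of the 99 were called lower, UTP4 (-1.44) and URB2 (-1.11) the most, and 0 higher.

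Promoter windows from RefSeq (GRCh38.p14, 250 bases before to 50 after the annotated start) were available for 33 of the 39 factors; the others are BOP1, DDX18, MPHOSPH10, NOLC1, RRP12 and RRS1. The letters CACGTG, the E-box that MYC with MAX and other factors can bind, which read the same on both strands, occur in a window of 16 of these 33 genes (48.5%). The share was 30.6% of 85 other biogenesis factors and 10.9% of 15843 protein-coding genes with windows of the same length. Of the 8 factors called in the cell line difference 6 have a window and 5 of these hold the letters, against 11 of 27 other members. The windows of 4 of the 5 that hold the letters are shown, and capitals mark CACGTG. The windows of EBNA1BP2 hold the letters too but are not shown. The window of NSUN5, also called in the cell line difference, does not hold them.
UTP20 (chr12:101279855-101280154, plus strand): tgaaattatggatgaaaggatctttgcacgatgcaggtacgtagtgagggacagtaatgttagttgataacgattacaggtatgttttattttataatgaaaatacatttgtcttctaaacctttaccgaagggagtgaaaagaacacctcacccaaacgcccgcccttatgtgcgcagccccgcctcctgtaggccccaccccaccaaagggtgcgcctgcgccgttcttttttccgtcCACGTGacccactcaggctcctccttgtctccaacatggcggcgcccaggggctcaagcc
NOP14 (chr4:2963357-2963656, minus strand): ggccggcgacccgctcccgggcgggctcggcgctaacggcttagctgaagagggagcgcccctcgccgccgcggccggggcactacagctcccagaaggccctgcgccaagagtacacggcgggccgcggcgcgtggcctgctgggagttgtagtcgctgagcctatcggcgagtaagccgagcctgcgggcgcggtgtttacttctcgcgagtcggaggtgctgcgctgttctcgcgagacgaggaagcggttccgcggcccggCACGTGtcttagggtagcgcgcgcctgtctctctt
MRTO4 (chr1:19251555-19251854, plus strand): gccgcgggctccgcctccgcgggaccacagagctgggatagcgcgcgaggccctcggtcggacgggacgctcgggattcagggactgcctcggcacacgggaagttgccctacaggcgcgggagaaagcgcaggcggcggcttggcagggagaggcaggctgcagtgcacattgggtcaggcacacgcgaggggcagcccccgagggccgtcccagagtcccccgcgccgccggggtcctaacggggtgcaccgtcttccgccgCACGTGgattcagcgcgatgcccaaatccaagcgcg
NOP2 (chr12:6568242-6568541, minus strand): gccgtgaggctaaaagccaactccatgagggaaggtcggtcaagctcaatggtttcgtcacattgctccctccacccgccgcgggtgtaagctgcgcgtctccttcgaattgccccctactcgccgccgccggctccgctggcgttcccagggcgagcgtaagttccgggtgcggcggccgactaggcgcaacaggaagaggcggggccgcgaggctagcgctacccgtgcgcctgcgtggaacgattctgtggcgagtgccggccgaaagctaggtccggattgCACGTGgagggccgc
The first base of the match lies 10 bases before the start in UTP20, and at base 16, 15 and 36 after it in NOP14, MRTO4 and NOP2. A match describes the letters only; no binding of a factor was measured here.

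Over the labelled hours the 39 mRNAs did not move as a block. In C4-2 the change per hour, relative to the library, was called lower for 19 and higher for 7 members with siFBL (19.2% and 15.9% of all genes), and again for 19 and 7 with siCTRL (18.6% and 15.4%). In HEK293T 19 members were lower and 2 higher with siFBL (29.2% and 22.5%), 20 and 2 with siNOP56 (29% and 21.8%), and 24 and 2 with siCTRL (28.3% and 21.8%). The share of members called lower was above that of all genes in all 5 series, and the share called higher was near it in C4-2 and below it in HEK293T. These directions are relative to a library in which ribosomal protein mRNAs were called higher with time for 73 of 76 with siFBL and 74 of 76 with siCTRL in C4-2. In HEK293T this was less complete: 29 of 75 were higher and 0 lower with siFBL, 30 and 2 with siNOP56 and 33 and 3 with siCTRL. With scaling to those mRNAs 35, 37, 36, 34 and 36 members fell in the 5 series in the order given above and 0 rose. The share of all genes called as falling under that scaling is not given here, so these counts do not set the members apart.

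Leaving aside PPAN, whose counts are low and uncertain, the processome proteins MPHOSPH10, WDR43 and IMP3 and the large subunit factor RRS1 fell fastest in C4-2. MPHOSPH10 was at 4.12% of its 0 h level at 12 h with siFBL, against 4.92% with siCTRL, with slopes of -0.40 and -0.39 log2 units per hour. WDR43 was at 3.85% with siFBL, against 4.30% with siCTRL, IMP3 at 6.66%, against 9.73%, and RRS1 at 3.51%, against 6.38%. BYSL, a late small subunit factor, was at 22.9% with siFBL, against 21.1% with siCTRL. At the other end EBNA1BP2 and the chaperones kept or raised their share of the library: NPM1 was at 159% of its 0 h level with siFBL, against 179% with siCTRL, NCL at 171%, against 187%, and EBNA1BP2 at 162%, against 184%.

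HEK293T cells gave a like order. At 24 h MPHOSPH10 was at 8.25% of its 0 h level with siFBL, 10.1% with siNOP56 and 9.87% with siCTRL, and RRS1 at 14.8%, 20.5% and 22.5%. EBNA1BP2 was at 197%, 225% and 182%. Over the 39 members the slopes in the 2 lines had a Spearman rho of 0.79 with siFBL and 0.76 with siCTRL, given as a description, since members are not replicates and share libraries.

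A difference in slope between knockdown and siCTRL was tested in the same fits, which give each siRNA 1 constant change per hour. Some HEK293T courses do not follow this form. With siFBL MPHOSPH10 was at 8.23%, 8.67% and 8.25% of its 0 h level at 6, 12 and 24 h. RRS1 was at 12.4%, 12.4% and 14.8%. For such courses the absence of a call does not show that knockdown and siCTRL fell alike. In C4-2 edgeR called 0 of the 39 for a difference in slope between siFBL and siCTRL (0% of genes higher and 0.00427% lower), with 0 higher and 3 lower at an unadjusted p under 0.05 and 0 called by DESeq2. The lowest p-values belonged to IMP3, PPAN and RRS1, with differences of -0.05 (SE 0.0159), -0.19 and -0.07 log2 units per hour. In HEK293T edgeR called 0 with siFBL and 0 with siNOP56 (0% of genes), DESeq2 called 0 in both, and at an unadjusted p under 0.05 there were 2 higher with siFBL and 1 higher with siNOP56. EMG1 was among the 3 lowest p-values in both, with differences of 0.04 with siFBL and 0.03 with siNOP56.

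**Figure D3:**
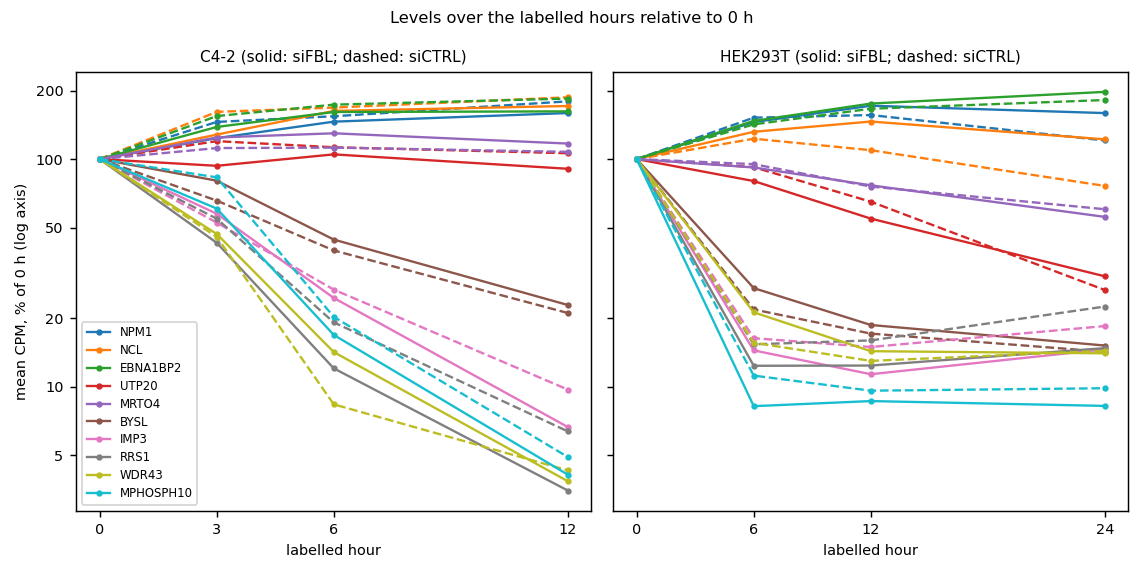
Mean CPM of 10 factors as a percentage of the 0 h mean (log axis) over the labelled hours (x axis), in C4-2 and HEK293T with siFBL (solid lines) and siCTRL (dashed lines). MPHOSPH10, WDR43, RRS1 and IMP3 fall to under 10% of their start in C4-2 by 12 h, while NPM1, NCL and EBNA1BP2 stay above 100% there; with scaling to ribosomal protein mRNAs no member was called as rising.

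The FBL immunoprecipitate held most of the 39 mRNAs above their input level. edgeR called 25 higher and 11 lower in RIP against input (39.9% and 43% of the 14967 genes tested), with a median log2 ratio of 0.40 over the members and -0.11 over all genes. With scaling to ribosomal protein mRNAs, which were themselves mostly lower in RIP (57 of 75 called), 34 members were higher and 2 lower, with medians of 1.38 over the members and 0.88 over all genes. These ratios are enrichments relative to the library, and no control antibody was used.

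UTP20 had 292 and 375 CPM in RIP, against 24.2 and 30.0 CPM in input (log2 ratio 3.62, SE 0.0961, edgeR adjusted p = 1.65e-24), and HEATR1 had 875.5 and 893 CPM, against 99.3 and 115 CPM (log2 ratio 3.04). Both proteins are long repeat scaffolds of the processome. PES1 had 188 and 210.5 CPM in RIP, against 46.3 and 46.3 CPM in input (log2 ratio 2.11), and RRS1 25.2 and 30.1 CPM, against 7.29 and 7.44 CPM (log2 ratio 1.91). The RRS1 input is far below the mean of 73.5 CPM with siCTRL at 0 h in the C4-2 time course. RRS1 was not alone in this. PES1 had a mean of 46.3 CPM in input, against 198 CPM in the time course, and NPM1 316 CPM, against 1401 CPM. HEATR1 was higher in input, with 107 CPM, against 78.6 CPM. The reason was not tested. DDX10, a helicase of the processome, and RRP12 followed with log2 ratios of 1.57 and 1.37. The 4 chaperones and scaffolds were all called higher, with log2 ratios of 1.14 for NPM1 at the top and 0.79 for DDX21 at the bottom.

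EMG1 was the lowest, with 14.8 and 15.1 CPM in RIP, against 58.2 and 62.1 CPM in input (log2 ratio -2.01, edgeR adjusted p = 2.48e-20), before NIP7, a large subunit factor, with 9.74 and 10.1 CPM, against 33.8 and 33.0 CPM (log2 ratio -1.75). EBNA1BP2 (-1.11), RRP9 (-0.92), DDX18 (-0.89) and NSUN5 (-0.83) were also called lower. BOP1, MRTO4 and IMP3 were not called. RIP and input libraries did not overlap in any gene named here with its CPM, which was a condition for giving it in full.

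Transcript length moved with the ratio over all genes: among 12869 protein-coding genes Spearman rho was 0.48, and among the 39 members 0.29. With all protein-coding genes put into 4 classes of equal size by length, 7 of 13 members in the shortest class, 6 of 10 and 9 of 12 in the next and 3 of 4 in the longest were called higher, against 19.6%, 31.8%, 47.2% and 69.6% of all genes. UTP20 and HEATR1 are in the longest class, where the median log2 ratio of all genes was 0.86; RRS1 is in the shortest, where it was -0.97. Of the 99 other biogenesis factors 47 were higher and 46 lower in RIP, MDN1 (3.83) and BMS1 (3.19) highest and EXOSC1 (-2.74) and PNO1 (-2.71) lowest.

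**Figure D4:**
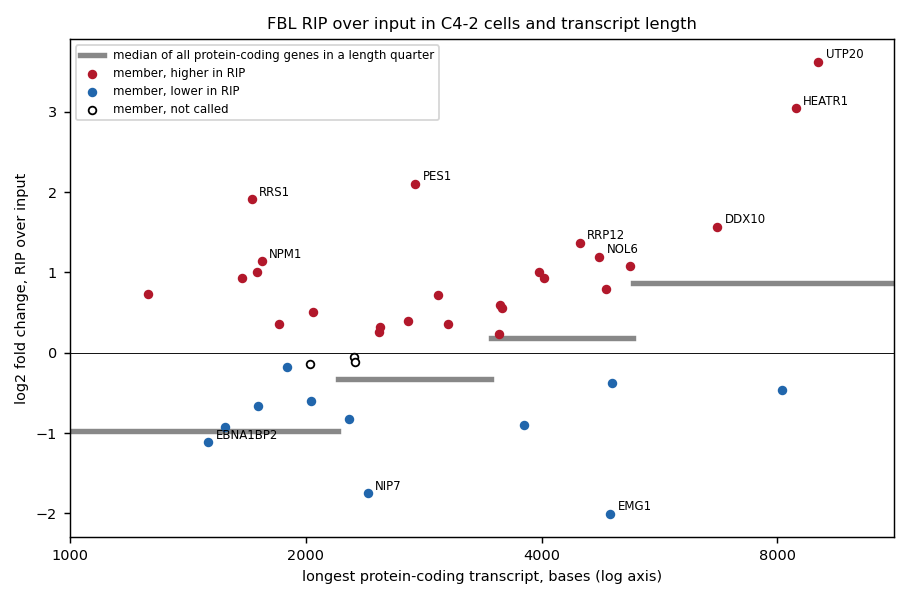
Log2 ratio of RIP over input (y axis) of the 39 factors against the length of their longest protein-coding transcript (x axis, log scale), with grey lines for the median of all protein-coding genes in each of 4 length classes. UTP20 (3.62) and HEATR1 (3.04) stand at the upper right, RRS1 (1.91) and PES1 (2.11) lie well above the line of their class, and EMG1 (-2.01) and NIP7 (-1.75) lie below.

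In SLAM-seq the hour in the file header differed from the labelled hour in 12 of 16 libraries, so hours are given here as in the headers, under which the share of converted reads falls with the hour in both groups. Of all reads in the members' 3′ intervals, 70.2% and 70.5% carried a T-to-C conversion at header hour 0 with siFBL, against 78.8% and 78.6% with siCTRL. At 12 h the shares were 18.5% and 17.6% with siFBL, against 20.8% and 21.3% with siCTRL, and at 24 h 3.50% and 3.78%, against 9.83% and 9.20%. At each header hour the siFBL libraries lay below the siCTRL libraries. The same held for all reads: 54.5% and 54.3% with siFBL at header hour 0, against 58.4% and 58.3% with siCTRL, and 5.01% and 5.17% at 24 h, against 10.0% and 10.1%.

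Single members kept very different parts of their label. NPM1 had a mean share of converted reads of 49.2% at header hour 12 with siFBL, against 55.9% with siCTRL, which is 72.1% of its header hour 0 value with siFBL and 85.9% with siCTRL. NOP2 was at 2.69% at 12 h with siFBL, against 3.85% with siCTRL, IMP3 at 1.74%, against 4.37%, and RRS1 at 4.97%, against 4.69%. The part kept ran from 1.49% (MPHOSPH10) over a median of 15.0% to 72.1% (NPM1) with siFBL, and from 4.63% (NOP2) over 14.1% to 85.9% (NPM1) with siCTRL. The MPHOSPH10 value is uncertain. With siFBL it rests on 23 and 38 reads at header hour 12, with shares of 0% and 2.63%. With siCTRL the shares there were 0% and 21.9%. Over the 39 members, MPHOSPH10 included, the part kept had a Spearman rho of 0.69 with the RNA-seq slope in siFBL C4-2 cells. In siCTRL cells rho was 0.72. Both are descriptions over members that share libraries.

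With the header hour as the covariate, an alternative to the labelled hour, edgeR called 5 of the 39 for total SLAM-seq reads, 3 higher and 2 lower with siFBL (5.35% and 5.08% of the 15344 genes tested). At each header hour both libraries of an siRNA carry the same replicate number, and their shares of converted reads were close. They may be repeats of the same sample, in which case the p-values of the header hour fits would be too small. Members were thus called at a share near that of all genes, and the values below describe single genes only. DDX10 had 14.9 and 10.0 CPM with siFBL at header hour 0, against 19.2 and 16.2 CPM with siCTRL, and 8.46 and 9.18 CPM at header hour 24, against 11.5 and 16.2 CPM (log2 fold change -0.61, SE 0.111, edgeR adjusted p = 0.00184). The siFBL libraries lay below the siCTRL libraries at each header hour. UTP14A was also lower (-0.47), and RRP9 (0.47), FTSJ3 (0.38), which takes part in large subunit maturation, and NOB1 (0.20) were higher. For the share of converted reads 38 members were tested, as MPHOSPH10 had too few reads. At the header hour 31 of them had a log2 odds below 0, with a median of -0.36, against -0.13 over all genes. edgeR called 0 of the 38, while 0.128% of the 10904 genes tested were higher and 1.63% lower. At an unadjusted p under 0.05, 0 members were higher and 14 lower, and DESeq2 was not run on shares. The share of all genes at that unadjusted p is not given here, so the 14 have no background to be read against. The lowest adjusted p was that of IMP3, 0.0694 at a log2 odds of -0.49 (SE 0.14).

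The fits with the labelled hour join libraries of different label content: the pair of siFBL libraries labelled 0 h had 70.2% and 3.50% converted member reads, and the siCTRL pair 78.8% and 9.83%. They called 0 members for total reads (0.313% of genes higher, 0.541% lower; 3 members higher and 1 lower at an unadjusted p under 0.05, and 1 called by DESeq2) and 0 for the share (0% of genes; 0 members at an unadjusted p under 0.05), and say little about a difference between siFBL and siCTRL.

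**Figure D5:**
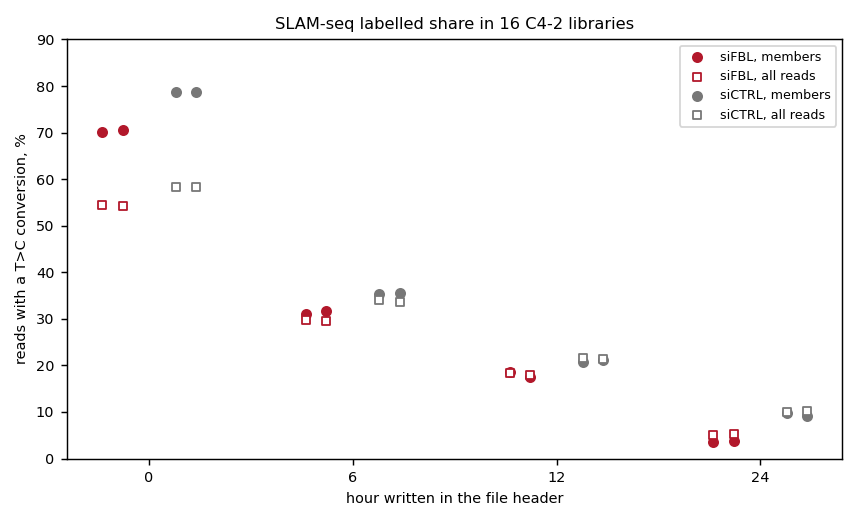
Share of reads with a T-to-C conversion (y axis, percent) in each of 16 SLAM-seq libraries by the hour in the file header (x axis), for the members' intervals (filled circles) and for all reads (open squares), with siFBL (red) and siCTRL (grey). The members go from 70.2% and 70.5% at 0 h to 3.50% and 3.78% at 24 h with siFBL, with the siCTRL libraries above them at each hour.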

How the data were processed

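Gene counts per library of the RNA-seq and RIP tables are whole numbers deposited by the authors; per the submitters' processing notes TopHat2 2.1.1 and HOMER were used for RIP, and the sources used here do not tie a genome build to these tables. SLAM-seq tables hold, per the file headers, read counts and T-to-C read counts for 117417 3′ intervals from slamdunk 0.4.3, and a reads-per-million column, held as a score in the deposited files and not used for any test. Of 64 libraries 60 were analysed; the 4 nanopore libraries were not analysed here.

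Tests used edgeR 4.0.16 (quasi-likelihood, TMM, its default low-count filter) in R 4.3.3 on all genes, with 1 mean per siRNA and hour, or siRNA-specific slopes over hours, and Benjamini-Hochberg adjustment at 0.05 over all genes; RIP was fitted apart. For SLAM-seq the interval with most reads stood for a gene, with the labelled hour, or as an alternative the header hour, as a covariate, and the share test needed at least 10 reads in every library. CPM values are TMM-scaled. DESeq2 1.42.0, other scalings, no filter, groups fitted alone, a replicate block and each library left out were alternatives. No label ties same-numbered libraries of different siRNAs to a culture or day, so the numbers were not used to pair siRNAs. The scripts were checked on simulated data. The 39 members and all lists were chosen with earlier results of these data known. Full statistics go to at most 8 called members a comparison with the largest change, a mean of at least 5 CPM and groups that do not overlap, or to the 3 lowest p-values where fewer than 3 were called.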

Additional observations from a re-analysis of the deposited data

Results flagged for a closer look

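The siFBL effect at 0 h in C4-2 minus that in HEK293T differed from 0 in edgeR's interaction test for 8 factors, all below 0. The log2 differences were -1.04 for NOP2 (adjusted p = 0.025), -0.79 for NOP14 (adjusted p = 0.0396) and -1.23 for UTP20 (adjusted p = 0.0248). RRP12 had -1.20 (adjusted p = 0.035), RRS1 -1.12 (adjusted p = 0.00705) and MRTO4 -1.12 (adjusted p = 0.0203). EBNA1BP2 had -0.59 (adjusted p = 0.0168) and NSUN5 -0.96 (adjusted p = 0.0164). In each of the 8 genes both C4-2 siFBL libraries were below both C4-2 siCTRL libraries, and both HEK293T siFBL libraries were above both HEK293T siCTRL libraries. The 8 were picked by a test on these same libraries, so this separation adds no support. FBL itself was reduced further in C4-2 than in HEK293T, and the part of this in the 8 differences was not tested.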

How the results depend on the processing

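With 2 libraries a group, counts of called members moved with single libraries. For C4-2 siFBL at 0 h DESeq2 called 20, DESeq2's size factors in edgeR 18, scaling to ribosomal protein mRNAs 2 and the groups alone 5; at 6 h the size factors gave 7 and the groups alone 3, and at 12 h the groups alone gave 2. For HEK293T siFBL DESeq2 called 3 at 0 h, and the groups alone 0 at each hour; for siNOP56 DESeq2 called 3, 6, 10 and 17 at 0, 6, 12 and 24 h, ribosomal protein scaling 0, 2 and 4 at 6, 12 and 24 h, and the groups alone 0. Between siRNAs at 1 hour the deviations of same-numbered libraries had a median correlation of 0.0297 in C4-2 (0 of 4 above 0.1) and 0.03 in HEK293T (2 of 12), so the libraries share only a number there. With the replicate block edgeR called 6, 13, 17 and 18 with siFBL and 4, 7, 14 and 18 with siNOP56 in HEK293T, 11, 22, 16 and 20 in C4-2 and 13 in the cell line difference; it left slope differences at 0, RIP at 25 higher and 11 lower and SLAM-seq at 0. Ribosomal protein scaling gave 36 and 34 changing slopes in HEK293T with siFBL and siNOP56. SLAM-seq total reads gave 1 with DESeq2, 1 with no filter, 5 with ribosomal protein scaling, 5 with the header hour and 1 without header hour 24.

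Leaving out 1 library (a lone library is assumed to vary like the other groups) gave 0 to 5, 5 to 9, 1 to 7 and 6 to 29 in C4-2 at 0, 3, 6 and 12 h, and 5 to 12 for the cell line difference. In HEK293T it gave 0 to 1, 0 to 7, 1 to 7 and 2 to 11 with siFBL, 0 to 0, 0 to 4, 0 to 7 and 1 to 14 with siNOP56, and 0 to 0 between siFBL and siNOP56. Slopes ran from 21 to 27 with siFBL and 20 to 26 with siCTRL in C4-2, and from 17 to 23 with siFBL, 17 to 23 with siNOP56 and 22 to 28 with siCTRL in HEK293T; slope differences were 0 to 1 in C4-2 and 0 to 0 in HEK293T. RIP gave 34 to 36, SLAM-seq total reads 0 to 1 and shares 0 to 0. Of the values, under all alternatives, of the members named by the rule 1565 kept direction and side of the threshold, 285 lost the call, 19 gained it and 0 reversed; the cause was not tested.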

Other observations

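Some members, chosen here after their values were seen, differed more between the 2 siFBL libraries than between siFBL and siCTRL. NOB1 in C4-2 had 67.8, 45.2, 27.1 and 16.5 CPM in siFBL library A and 112, 93.5, 79.8 and 39.3 CPM in siFBL library B at 0, 3, 6 and 12 h, against 82.5, 50.1, 31.9 and 15.9 CPM in siCTRL library A. In HEK293T NOB1 had 165.9, 73.4, 54.1 and 33.3 CPM in siFBL library 1 and 257, 192.5, 165.1 and 147 CPM in siFBL library 2 at 0, 6, 12 and 24 h, against 146 CPM at 0 h and 24.5 CPM at 24 h in siCTRL library 1. DDX10 went the other way in HEK293T, with 77.0, 48.9, 25.3 and 16.9 CPM in siFBL library 1 and 40.7, 15.6, 10.1 and 7.15 CPM in siFBL library 2.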
